A study of Drosophila melanogaster with 23 samples.

Results

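Glutathione transferases and antioxidant enzymes were examined in whole adult Drosophila melanogaster kept at different temperatures. The members were the rows of the deposited table whose gene symbol begins with Gst, Sod, Prx or Trx, together with Cat, Jafrac1, Jafrac2, PHGPx, Gclc, Gclm, dhd, TrxT, Ccs and Keap1. This gave 55 of the 11152 features in the table. They comprised 35 glutathione transferases (GSTs), of which 11 were of class D, 14 of class E, 3 of class O, 1 of class S, 4 of class T and 2 of class Z. A further 4 were the superoxide dismutases Sod1 and Sod3, their copper chaperone Ccs and catalase (Cat), and 7 were peroxiredoxins or the peroxidase PHGPx. The thioredoxins Trx-2, TrxT and dhd with the reductase Trxr-1 made 4, the subunits of glutamate-cysteine ligase, Gclc and Gclm, made 2, and the sensor Keap1 made 1. The prefix Sod also caught the sorbitol dehydrogenases Sodh-1 and Sodh-2, which are not antioxidant enzymes, and they are described apart. Sod2 was not analysed here. RefSeq now names Jafrac1 Prx2, Jafrac2 Prx4, PHGPx Gtpx, Prx2540-2 Prx6c and Prx6005 Prx6a, and the deposited symbols are kept here.

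Each library came from 10 pooled virgin flies of the white-eyed strain w1118, of one sex. Females gave 4 libraries at each of 18, 24 and 28 °C, and males gave 4 at 18, 4 at 24 and 3 at 28 °C. All flies were held at 24 °C until about 5 days of age, then moved to their test temperature. The age at freezing was 45 days in the 18 and 24 °C groups and 35 days in the 28 °C groups. Age and temperature therefore cannot be told apart where 28 °C is involved, whereas 24 against 18 °C compares flies of the same age. The paper chose the 28 °C time point by the mortality reached there, so those pools are survivors of a cohort that had lost many flies. This too cannot be told apart from temperature. No mutation or drug was applied, and w1118 is the background of every group. In whole bodies, a change in the level of a transcript and a change in the share of RNA from the tissue that makes it cannot be told apart.

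GSTs join glutathione to reactive compounds so that these can be excreted, and in insects the classes D and E have expanded into gene clusters known for detoxification of insecticides and lipid peroxidation products. Superoxide dismutases turn superoxide into hydrogen peroxide. Catalase and the peroxiredoxins then remove the peroxide, and thioredoxins, kept reduced by Trxr-1 with NADPH, recharge the peroxiredoxins. Flies lack glutathione reductase, and the thioredoxin system also reduces oxidized glutathione. Keap1 holds back the transcription factor CncC, the fly homologue of Nrf2, which drives many GSTs and Gclc under oxidative stress.

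The sum of expected counts ran between 17727137 and 23194619, and none of the 33 pairs of replicates agreed within sampling noise. Levels are given in CPM, counts per 1000000, scaled with edgeR's TMM factors, and p-values are from edgeR's quasi-likelihood test, adjusted with Benjamini-Hochberg over the 9698 features that reached 0.5 CPM in each of the 23 libraries. A member is said to have risen or fallen where the adjusted p was below 0.01. Of the 55 members, 47 passed the filter, and GstD4, GstD5, GstD6, GstD7, GstD8, GstD11, GstE4 and TrxT did not. The labels do not say whether pools of a group were reared apart, so p-values measure the spread between these pools, which may be technical. The scaling matters in these data, since TMM measures each library against 1 library, here female 28 °C replicate 4. The median log2 change of all features between 28 and 18 °C in females was -0.01 with this reference, -0.25 to 0.01 over the 23 possible references and -0.15 with DESeq2 size factors. For members whose call depended on the scaling, the number of the 25 scalings (23 references, size factors and library totals) under which it passed is given. One library, female 28 °C replicate 1, was the lowest of its group in 27 of the 47 members and in 39.4% of all features. It was the lowest of the 28 °C females in 15 of the 20 members that rose in females.

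Between 28 and 18 °C in females, 28 of the 47 members changed, 20 higher and 8 lower at 28 °C, where 38.0% of all features changed, 21.8% higher and 16.2% lower. In males, 20 members changed, 15 higher and 5 lower, where 30% of all features changed, 10.5% higher and 19.5% lower. Without the sorbitol dehydrogenases, 18 of 45 members rose and 8 fell in females, and 14 rose and 5 fell in males. The median log2 change over the 47 members was 0.17 in females, where it was -0.01 over all features, and 0.22 in males, where it was -0.08. The division in females moved with the scaling and the libraries. It was 16 higher and 13 lower with DESeq2 size factors, 17 and 13 with library totals, 16 and 14 with DESeq2, and 16 and 16 without female 28 °C replicate 1. The members that rose in both sexes were Cat, Sod1, Gclc, GstD3, GstE1, GstE6, GstE7, GstE8, GstE9, GstT4, GstZ2 and Sodh-1, and those that fell in both were GstE13 and PHGPx. The libraries at 28 and 18 °C did not overlap in 30 of the 47 members in females, against 43.5% of all features, and in 27 in males, against 46.5%. A further 14 changed in females alone and 6 in males alone at this threshold, which by itself does not show that the sexes differed.

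**Figure D1:**
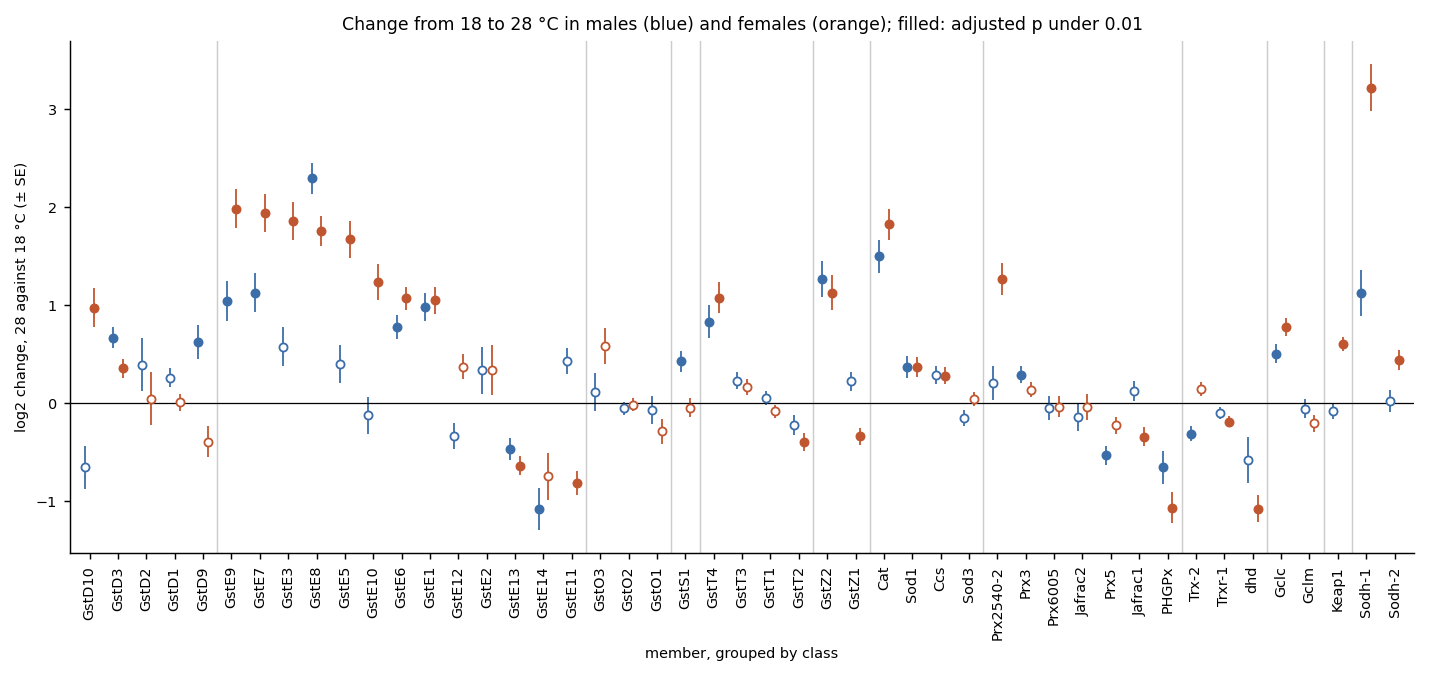
Log2 change between 28 and 18 °C (vertical axis, ± SE) of the 47 members that passed the filter, grouped by class along the horizontal axis, in males (blue, left of each pair) and females (orange). Filled points passed an adjusted p of 0.01; most filled points above 1 belong to class E GSTs, Cat, GstZ2 and Sodh-1.

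Catalase, the enzyme that splits hydrogen peroxide, showed the largest rise of any non-GST antioxidant enzyme in both sexes. Its gene lies on arm 3L, from 18822604 to 18828188 of genome Release 6 (dm6). In males Cat had 438, 441, 496 and 602 CPM at 18 °C, 498, 647, 724 and 659.6 CPM at 24 °C and 1279, 1395 and 1525 CPM at 28 °C. In females it had 238, 325, 271 and 218 CPM at 18 °C, 477, 426, 586 and 401 CPM at 24 °C and 686, 1009, 1106 and 935 CPM at 28 °C. Every library at 28 °C lay above every library of the same sex at the cooler temperatures. Cat was 2.83-fold higher at 28 than at 18 °C in males (log2 fold change 1.50, SE 0.17, adjusted p = 1.41e-06) and 3.55-fold higher in females (log2 fold change 1.83, SE 0.16, adjusted p = 1.91e-08). The rise passed under all 25 scalings in both sexes, and the lowest of the 28 °C females was replicate 1.

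Sod1, the cytosolic copper-zinc superoxide dismutase, moved far less. It had 340.1, 417 and 482 CPM in males at 28 °C, against 311, 332, 296 and 336 CPM in males at 18 °C, and 296, 337, 338 and 336 CPM in females at 28 °C, against 235, 253, 284 and 238 CPM in females at 18 °C. The groups did not overlap in either sex (log2 fold change 0.37, SE 0.11, adjusted p = 0.0096 in males, and log2 fold change 0.37, SE 0.10, adjusted p = 0.00499 in females). The rise in females passed under 11 of the 25 scalings, with log2 values of 0.14 to 0.39, and the rise in males under 24. The call was lost in females without female 18 °C replicates 1, 2 or 4, female 24 °C replicates 1 or 4 or female 28 °C replicates 1, 2, 3 or 4 (log2 0.15 to 0.43 over all fits that leave out 1 library), and in males without female 24 °C replicate 2, female 28 °C replicates 2 or 3, male 18 °C replicates 1, 2, 3 or 4, male 24 °C replicates 2, 3 or 4 or male 28 °C replicates 2 or 3 (log2 0.25 to 0.50 over all fits that leave out 1 library). Ccs, which delivers copper to Sod1, showed a change of log2 0.28 (SE 0.08, adjusted p = 0.00874) in females, past the threshold under 6 of the 25 scalings, and of log2 0.29 (SE 0.09, adjusted p = 0.015) in males. Sod3, the extracellular form, had 166, 131, 141 and 135 CPM in females at 28 °C, against 136, 137, 137 and 146 CPM in females at 18 °C. Its groups overlapped, and its change was log2 0.05 (SE 0.08, adjusted p = 0.643) in females and log2 -0.15 (SE 0.08, adjusted p = 0.167) in males. Without female 28 °C replicate 1 the female value was -0.25 (adjusted p = 0.00967), on the other side of 0.

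Class E held the largest group of rises among the GSTs. Of its 14 genes 13 passed the filter, and 8 rose and 2 fell in females, where 21.8% of all features rose and 16.2% fell, while 5 rose and 2 fell in males, where 10.5% rose and 19.5% fell. The median log2 change of these 13 was 1.07 in females and 0.43 in males. The genes GstE10, GstE1 to GstE9 lie side by side in that order on arm 2R, within 18396638 to 18409835 of Release 6, while GstE11, GstE12, GstE13 and GstE14 lie elsewhere on the same arm. All 8 class E rises in females belonged to this cluster. The 9 cluster genes that passed the filter all rose in females except GstE2, which had log2 0.34 (SE 0.26, adjusted p = 0.282). In the cluster 5 of the 9 rose in males, GstE1, GstE6, GstE7, GstE8 and GstE9.

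GstE8 rose most in males. It had 8.23, 10.1, 10.9 and 9.73 CPM in males at 18 °C, 11.3, 19.8, 21.4 and 14.8 CPM at 24 °C and 44.04, 49.0 and 50.8 CPM at 28 °C, which is a 4.91-fold difference between 28 and 18 °C (log2 fold change 2.30, SE 0.16, adjusted p = 6.66e-09). In females it had 25.5, 31.2, 29.9 and 30.5 CPM at 28 °C, against 7.49, 8.68, 9.42 and 8.92 CPM at 18 °C (log2 fold change 1.76, SE 0.15, adjusted p = 1.39e-08). The 28 °C libraries lay above all others of their sex. GstE7 and GstE8 are neighbours, and 65.2% of the deposited values of each were not whole numbers, which is what dividing reads among genes gives. GstE7 had 42.8, 46.5 and 46.9 CPM in males at 28 °C, against 17.1, 18.6, 27.7 and 19.6 CPM in males at 18 °C (log2 fold change 1.13, SE 0.20, adjusted p = 0.000128). In females GstE7 had 27.4, 38.2, 34.1 and 35.4 CPM at 28 °C, against 8.19, 7.84, 8.64 and 10.4 CPM at 18 °C (log2 fold change 1.95, SE 0.19, adjusted p = 8.27e-08). Both members of the pair rose in both sexes with no overlap.

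GstE9, at the far end of the cluster, had 96.0, 102 and 116 CPM in males at 28 °C, against 36.6, 49.5, 67.6 and 49.3 CPM in males at 18 °C (log2 fold change 1.05, SE 0.20, adjusted p = 0.000322). In females it had 59.9, 78.8, 79.9 and 68.7 CPM at 28 °C, against 15.5, 22.2, 14.9 and 19.7 CPM at 18 °C (log2 fold change 1.99, SE 0.20, adjusted p = 8.05e-08), the largest GST rise in that sex. Its annotated span overlaps that of imd, an immune adaptor, and reads from the overlap cannot be assigned by position alone. All deposited values of GstE9 were whole numbers, so no division of its reads was seen. GstE1 had 149.5, 174 and 177 CPM in males at 28 °C, against 76.4, 82.1, 104 and 75.5 CPM at 18 °C (log2 fold change 0.98, SE 0.14, adjusted p = 2.09e-05). In females GstE1 had 77.5, 104, 108 and 107 CPM at 28 °C, against 49.4, 49.8, 46.0 and 46.4 CPM at 18 °C (log2 fold change 1.05, SE 0.14, adjusted p = 2.36e-06). The spans of GstE1 and GstE10 overlap, and reads from the overlap cannot be told apart without strand. The deposited values of both were whole numbers throughout, so no division of reads between them was seen. GstE6 rose by log2 0.78 (SE 0.12, adjusted p = 4.34e-05) in males and log2 1.07 (SE 0.12, adjusted p = 2.12e-07) in females.

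For GstE3, GstE5 and GstE10 the female rise was large and the male change did not pass. GstE3 had 62.2, 78.2 and 94.9 CPM in males at 28 °C, against 55.0, 53.5, 55.7 and 45.6 CPM in males at 18 °C (log2 fold change 0.58, SE 0.20, adjusted p = 0.0212). In females GstE3 had 41.4, 68.01, 61.6 and 53.1 CPM at 28 °C, against 14.97, 15.9, 14.1 and 16.6 CPM at 18 °C (log2 fold change 1.86, SE 0.19, adjusted p = 1.33e-07). The female libraries at 18 °C lay below every male library, and those at 28 °C overlapped the males at every temperature. GstE5 had 16.7, 22.5 and 26.3 CPM in males at 28 °C, against 12.4, 17.5, 21.6 and 14.5 CPM at 18 °C (log2 fold change 0.40, SE 0.19, adjusted p = 0.0985). In females GstE5 had 14.2, 18.7, 19.0 and 20.0 CPM at 28 °C, against 4.98, 6.44, 5.37 and 5.77 CPM at 18 °C (log2 fold change 1.67, SE 0.19, adjusted p = 4.04e-07). GstE10 had 17.1, 18.5 and 20.6 CPM in males at 28 °C, against 15.1, 23.7, 22.0 and 20.9 CPM at 18 °C (log2 fold change -0.12, SE 0.19, adjusted p = 0.635). In females GstE10 had 13.6, 17.6, 18.3 and 17.9 CPM at 28 °C, against 6.46, 9.53, 7.44 and 5.06 CPM at 18 °C (log2 fold change 1.24, SE 0.18, adjusted p = 1.23e-05). All 3 female rises passed under each of the 25 scalings.

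**Figure D2:**
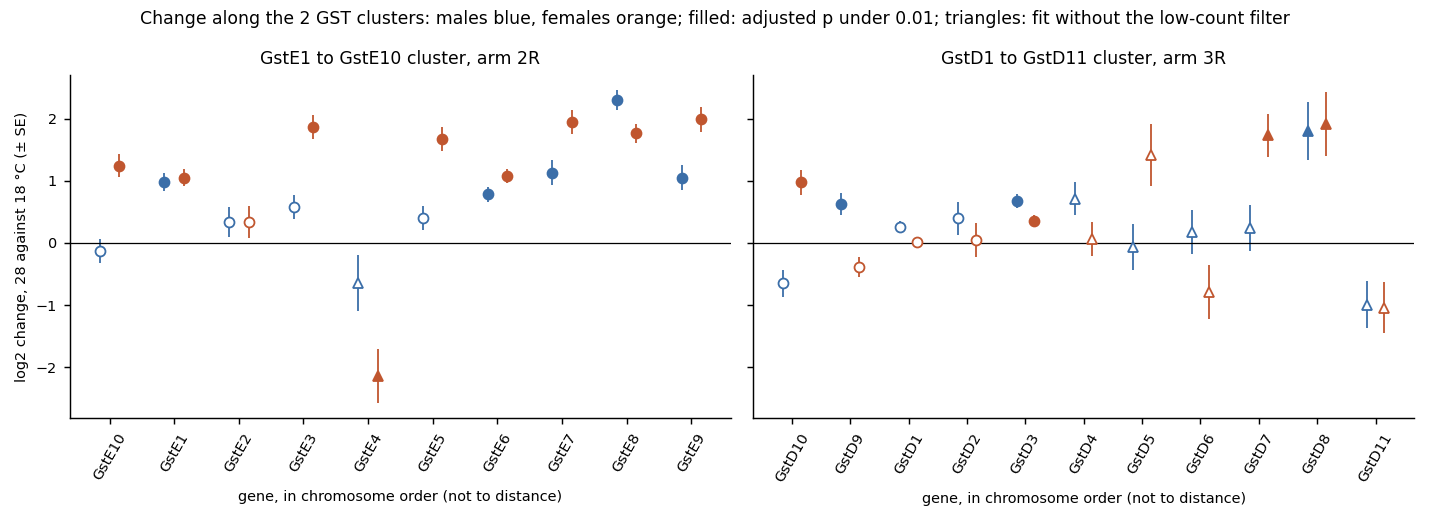
Log2 change between 28 and 18 °C (vertical axis, ± SE) of the class E cluster on arm 2R (left panel) and the class D cluster on arm 3R (right panel), with genes in chromosome order and males (blue) left of females (orange). Filled symbols passed an adjusted p of 0.01 and triangles mark genes fitted without the low-count filter; GstE4 in females, at -2.13, is the one filled symbol below 0.

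GstE4, inside the cluster, fell in females. Its levels were under the filter in some libraries, with 0.346, 0.953, 1.25 and 1.22 CPM in females at 28 °C, against 5.59, 5.76, 3.01 and 2.16 CPM in females at 18 °C. These did not overlap, and without the filter the change was log2 -2.13 (SE 0.44, adjusted p = 0.000406) in females and log2 -0.65 (SE 0.45, adjusted p = 0.267) in males. Of the 4 class E genes outside the cluster, 2 fell in each sex and none rose. Of all features 16.2% fell and 21.8% rose in females, and 19.5% fell and 10.5% rose in males. GstE13 had 11.5, 10.01 and 13.9 CPM in males at 28 °C, against 15.7, 17.4, 14.5 and 17.8 CPM at 18 °C (log2 fold change -0.47, SE 0.11, adjusted p = 0.00219). In females GstE13 had 26.5, 27.5, 24.2 and 24.7 CPM at 28 °C, against 39.0, 38.2, 46.7 and 36.1 CPM at 18 °C (log2 fold change -0.64, SE 0.10, adjusted p = 1.97e-05). It fell in both sexes with no overlap, the male fall passing under 20 of the 25 scalings and not without female 18 °C replicates 1 or 2, female 24 °C replicates 1 or 4 or male 28 °C replicates 1 or 2 (log2 -0.60 to -0.36 over all fits that leave out 1 library). GstE11 had 16.4, 16.7, 20.9 and 18.9 CPM in females at 28 °C, against 26.6, 34.1, 37.5 and 29.99 CPM in females at 18 °C (log2 fold change -0.81, SE 0.12, adjusted p = 1.59e-05). In males GstE11 had 23.8, 23.9 and 22.6 CPM at 28 °C, against 15.6, 16.3, 21.4 and 16.2 CPM at 18 °C (log2 fold change 0.43, SE 0.13, adjusted p = 0.0136), with every 28 °C library higher but the change short of the threshold.

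GstE14, which acts in the larval synthesis of the steroid hormone ecdysone, fell in males. It had 2.09, 1.73 and 1.69 CPM in males at 28 °C, against 4.18, 4.47, 2.99 and 3.91 CPM in males at 18 °C (log2 fold change -1.08, SE 0.21, adjusted p = 0.000404). In females it had 0.649, 0.681, 0.627 and 0.800 CPM at 28 °C, against 0.823, 0.974, 1.42 and 1.41 CPM at 18 °C (log2 fold change -0.74, SE 0.24, adjusted p = 0.0132). The female values did not overlap either, but the change missed the threshold. GstE12 gave log2 -0.33 (SE 0.13, adjusted p = 0.0501) in males and log2 0.38 (SE 0.12, adjusted p = 0.0157) in females, neither past the threshold.

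Class D was divided between rises and values short of the threshold. Of its 11 genes, 5 passed the filter, and 2 of these rose in females, where 21.8% of all features did, and 2 in males, where 10.5% did. GstD1, the best-studied fly GST and a common reporter of CncC activity, had 969, 958 and 1043 CPM in males at 28 °C, against 822, 778, 874 and 832 CPM in males at 18 °C (log2 fold change 0.26, SE 0.10, adjusted p = 0.0358). In females GstD1 had 795, 834, 917 and 832 CPM at 28 °C, against 837, 875, 848 and 794 CPM at 18 °C (log2 fold change 0.01, SE 0.09, adjusted p = 0.938). Male libraries at 28 °C lay above those at 18 °C without passing the threshold, and the female groups overlapped. GstD3 rose in both sexes, by log2 0.67 (SE 0.11, adjusted p = 5.25e-05) in males and log2 0.36 (SE 0.10, adjusted p = 0.00484) in females, the female rise passing under 10 of the 25 scalings. GstD10 rose in females, where it had 7.57, 15.4, 13.5 and 16.6 CPM at 28 °C, against 5.43, 6.27, 6.45 and 8.80 CPM at 18 °C (log2 fold change 0.98, SE 0.20, adjusted p = 0.000407). Its groups overlapped through replicate 1 at 28 °C. In males GstD10 had 7.41, 9.15 and 11.95 CPM at 28 °C, against 14.0, 14.6, 15.8 and 15.4 CPM at 18 °C (log2 fold change -0.65, SE 0.22, adjusted p = 0.0197), lower in every library. GstD9 rose in males, at log2 0.63 (SE 0.17, adjusted p = 0.00534), and had log2 -0.39 (SE 0.16, adjusted p = 0.0483) in females. GstD10 and GstD9 are neighbours at one end of the cluster on arm 3R.

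The class D genes under the filter, GstD4 to GstD8 and GstD11, had group means of 0.180 to 3.75 CPM in females and 0.548 to 13.9 CPM in males. Class D genes are related copies, but all their deposited values were whole numbers, so no division of reads among them was seen. GstD8 rose in both sexes in the fit without the filter. It had 24.2, 9.25 and 8.31 CPM in males at 28 °C, against 1.54, 3.41, 8.001 and 3.14 CPM at 18 °C (log2 fold change 1.80, SE 0.47, adjusted p = 0.00458), and 2.16, 4.77, 5.51 and 2.54 CPM in females at 28 °C, against 0.576, 1.61, 0.989 and 0.788 CPM at 18 °C (log2 fold change 1.91, SE 0.51, adjusted p = 0.00401). The groups did not overlap in either sex, and among males at 28 °C replicate 1 stood above the other pools. GstD7 rose in females, with 1.47, 3.31, 3.09 and 2.40 CPM at 28 °C, against 0.905, 0.762, 0.602 and 0.788 CPM at 18 °C (log2 fold change 1.73, SE 0.35, adjusted p = 0.000331), and had log2 0.24 (SE 0.37, adjusted p = 0.644) in males. None of the other 4 passed the threshold between 28 and 18 °C in either sex.

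Among the remaining GST classes, GstZ2 and GstT4 rose in both sexes. GstZ2, a zeta class enzyme of a family that isomerizes maleylacetoacetate in tyrosine breakdown, had 114, 92.4 and 85.4 CPM in males at 28 °C, against 37.0, 44.04, 44.8 and 35.2 CPM in males at 18 °C (log2 fold change 1.27, SE 0.18, adjusted p = 1.86e-05). In females GstZ2 had 21.7, 35.9, 38.7 and 38.2 CPM at 28 °C, against 13.2, 17.7, 14.4 and 16.1 CPM at 18 °C (log2 fold change 1.13, SE 0.18, adjusted p = 2.52e-05). GstT4 had 272, 191 and 192 CPM in males at 28 °C, against 99.1, 122, 144 and 125 CPM at 18 °C (log2 fold change 0.83, SE 0.17, adjusted p = 0.000445). In females GstT4 had 97.8, 113, 131 and 129.6 CPM at 28 °C, against 50.3, 59.5, 51.5 and 62.2 CPM at 18 °C (log2 fold change 1.08, SE 0.16, adjusted p = 1.08e-05). Neither gene overlapped between temperatures in either sex. GstZ1, adjacent to GstZ2 on arm 3R, had 11.4, 14.1, 12.6 and 12.9 CPM in females at 28 °C, against 16.9, 15.8, 17.2 and 14.5 CPM at 18 °C (log2 fold change -0.34, SE 0.09, adjusted p = 0.00266), and log2 0.22 (SE 0.10, adjusted p = 0.0646) in males. The fall of GstZ1 was lost without female 18 °C replicate 3 (log2 -0.58 to -0.30 over all fits that leave out 1 library). GstT2 had 18.2, 17.7, 15.7 and 15.8 CPM in females at 28 °C, against 23.5, 20.4, 22.0 and 22.7 CPM at 18 °C (log2 fold change -0.39, SE 0.09, adjusted p = 0.00117), and log2 -0.22 (SE 0.10, adjusted p = 0.0806) in males. GstS1, an abundant sigma class enzyme known from flight muscle, had 579.9, 545 and 655 CPM in males at 28 °C, against 531, 416, 344 and 472 CPM at 18 °C (log2 fold change 0.43, SE 0.11, adjusted p = 0.00274), a rise lost without male 18 °C replicate 2 or male 28 °C replicate 3 (log2 0.33 to 0.53 over all fits that leave out 1 library). The 7 muscle markers summed to 5489 to 5670.4 CPM in males at 28 °C, against 5206 to 5676 CPM at 18 °C. Of these 7, 2 rose and 1 fell in males, where 10.5% of all features rose and 19.5% fell. Their part in the rise of GstS1 was not tested. In females GstS1 overlapped between the temperatures (log2 fold change -0.04, SE 0.10, adjusted p = 0.749). GstO1, GstO2, GstO3, GstT1 and GstT3 did not pass in either sex, with log2 changes between -0.29 for GstO1 and 0.59 for GstO3, both in females.

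Of the 7 members that are peroxiredoxins or PHGPx, 2 fell and 1 rose in each sex, where 19.5% of all features fell and 10.5% rose in males, and 16.2% fell and 21.8% rose in females. PHGPx, which uses thioredoxin in flies to reduce lipid hydroperoxides, had 235, 234 and 270.4 CPM in males at 28 °C, against 425, 274, 404 and 446 CPM in males at 18 °C (log2 fold change -0.65, SE 0.17, adjusted p = 0.00384). In females PHGPx had 175, 213, 225 and 219 CPM at 28 °C, against 433, 520.3, 487 and 298 CPM at 18 °C (log2 fold change -1.06, SE 0.16, adjusted p = 1.05e-05). The fall in females passed under all 25 scalings. The fall in males passed under 21 of them and was lost without male 18 °C replicates 1 or 4 or male 28 °C replicates 1 or 2 (log2 -0.79 to -0.57 over all fits that leave out 1 library). Jafrac1, the main cytosolic peroxiredoxin, had 775, 706, 688 and 687 CPM in females at 28 °C, against 912, 939, 909 and 851 CPM in females at 18 °C (log2 fold change -0.34, SE 0.09, adjusted p = 0.00446). This fall was lost without female 18 °C replicate 3 or female 28 °C replicates 2 or 3 (log2 -0.60 to -0.32 over all fits that leave out 1 library), and in males Jafrac1 overlapped (log2 fold change 0.12, SE 0.10, adjusted p = 0.326). Prx5 had 86.1, 92.2 and 98.6 CPM in males at 28 °C, against 146, 123, 124 and 140.3 CPM in males at 18 °C (log2 fold change -0.53, SE 0.09, adjusted p = 0.000147), and log2 -0.22 (SE 0.09, adjusted p = 0.0381) in females. Prx2540-2, a peroxiredoxin of the Prx6 type, rose in females, with 62.8, 74.1, 83.6 and 48.5 CPM in females at 28 °C, against 26.6, 26.2, 28.003 and 30.8 CPM at 18 °C (log2 fold change 1.27, SE 0.16, adjusted p = 2.39e-06). In males Prx2540-2 overlapped, with 117, 74.8 and 83.8 CPM at 28 °C, against 90.9, 82.5, 64.1 and 81.2 CPM at 18 °C (log2 fold change 0.21, SE 0.17, adjusted p = 0.352). None of its deposited values were whole numbers, so some of its reads were divided with another gene. The mitochondrial Prx3 had log2 0.29 (SE 0.09, adjusted p = 0.00855) in males, past the threshold under 24 of the 25 scalings, and log2 0.14 (SE 0.08, adjusted p = 0.148) in females. Jafrac2, the form of the secretory pathway, and Prx6005 passed in neither sex.

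Within the thioredoxin system, dhd, an ovary thioredoxin needed to unpack sperm chromatin in the egg, fell in females. Among female pools it had 1504, 1496, 1804 and 1465 CPM at 18 °C, 936, 932, 835 and 953 CPM at 24 °C and 904, 714, 734 and 627 CPM at 28 °C. The groups at 24 and 28 °C lay below the group at 18 °C (log2 fold change -1.07, SE 0.14, adjusted p = 1.99e-06). The 10 ovary germline markers summed to 4955 to 5712 CPM in females at 18 °C, 3996 to 4597 CPM at 24 °C and 3689.7 to 5039 CPM at 28 °C. Of the 9 of these that passed the filter 2 fell between 28 and 18 °C, where 16.2% of all features fell. Between 24 and 18 °C, 4 of the 9 fell, where 8.7% of all features did, and none rose in either comparison. The part of these markers in the fall of dhd was not tested. Trx-2, the general cytosolic thioredoxin, had 131, 146 and 171 CPM in males at 28 °C, against 175, 189.9, 191 and 183 CPM in males at 18 °C (log2 fold change -0.31, SE 0.08, adjusted p = 0.00313), a fall that passed under 4 of the 25 scalings and was lost without female 18 °C replicates 1, 2 or 4, female 24 °C replicates 1 or 4, female 28 °C replicates 1 or 4 or male 28 °C replicates 1 or 2 (log2 -0.42 to -0.22 over all fits that leave out 1 library). Trxr-1, the reductase that serves both thioredoxin and glutathione, had 391, 385, 389 and 379.7 CPM in females at 28 °C, against 442, 459.6, 456 and 402 CPM in females at 18 °C (log2 fold change -0.19, SE 0.06, adjusted p = 0.00874). This fall passed under 22 of the 25 scalings, but was lost without female 18 °C replicate 3, female 24 °C replicate 2, female 28 °C replicates 2 or 3, male 18 °C replicates 2 or 4, male 24 °C replicates 2, 3 or 4 or male 28 °C replicate 2 (log2 -0.42 to -0.17 over all fits that leave out 1 library). In males Trxr-1 overlapped (log2 fold change -0.10, SE 0.06, adjusted p = 0.208). The testis thioredoxin TrxT had 298, 252 and 289 CPM in males at 28 °C, against 357, 285, 179.7 and 285 CPM at 18 °C, and the groups overlapped (log2 fold change 0.04, SE 0.23, adjusted p = 0.91, without the filter).

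The subunits of glutamate-cysteine ligase, the first step of glutathione synthesis, differed. Gclc, the catalytic subunit, had 149, 137 and 125 CPM in males at 28 °C, against 91.1, 83.4, 111 and 101 CPM in males at 18 °C (log2 fold change 0.51, SE 0.09, adjusted p = 0.000233). In females Gclc had 120.3, 139, 151 and 148 CPM at 28 °C, against 79.4, 82.7, 77.7 and 85.7 CPM at 18 °C (log2 fold change 0.78, SE 0.09, adjusted p = 4.12e-07). Both rises passed under all 25 scalings. Gclm, the modifier subunit, had 103, 107 and 125 CPM in males at 28 °C, against 127, 127, 99.1 and 112 CPM at 18 °C (log2 fold change -0.05, SE 0.09, adjusted p = 0.674), and 134, 132, 127 and 135 CPM in females at 28 °C, against 147, 145, 168.4 and 147 CPM at 18 °C (log2 fold change -0.20, SE 0.09, adjusted p = 0.0558). The sensor Keap1 had 18.5, 19.9, 19.0 and 20.7 CPM in females at 28 °C, against 13.8, 12.5, 12.9 and 12.2 CPM in females at 18 °C (log2 fold change 0.60, SE 0.07, adjusted p = 1.001e-06), a rise that passed under all 25 scalings. In males Keap1 had 19.1, 18.6 and 18.5 CPM at 28 °C, against 19.6, 19.3, 19.1 and 21.2 CPM at 18 °C, with overlap (log2 fold change -0.08, SE 0.08, adjusted p = 0.426).

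Other genes of the pathway were counted in lists, with TMM and its 1 reference only. For comparison, between 28 and 18 °C 21.8% of all features rose and 16.2% fell in females. In males 10.5% rose and 19.5% fell. Of the CncC regulators cnc, maf-S, Cul3 and ref(2)P, 1 of 4 rose in females between 28 and 18 °C (cnc), by log2 0.27 (adjusted p = 0.000132), and 1 in males (Cul3), by log2 0.35 (adjusted p = 0.00912). All 5 genes that supply NADPH (Zw, Pgd, Men, Men-b and Idh) rose in females and 4 rose in males, Zw being the exception in males at log2 0.25 (adjusted p = 0.0678). Both ferritin chains, Fer1HCH and Fer2LCH, rose in females, by log2 0.63 (adjusted p = 0.00025) and log2 0.89 (adjusted p = 5.44e-06), and in males they gave log2 0.25 (adjusted p = 0.129) and log2 0.33 (adjusted p = 0.0512). Of 6 cytochrome P450 genes linked to oxidative stress or insecticides, 3 rose in females and 2 in males, with Cyp6g1 the largest in both at log2 2.54 (adjusted p = 3.17e-08) in females and log2 1.81 (adjusted p = 6.93e-06) in males. The gut peroxidase Irc rose by log2 1.02 (adjusted p = 8.01e-05) in males and log2 1.80 (adjusted p = 2.87e-08) in females. Of 4 glutaredoxins and repair enzymes, 2 rose and 1 fell in females, and 1 fell in males. Of the glutathione genes Gss1, Gss2 and Ggt-1, Gss2 rose in females, at log2 0.50 (adjusted p = 0.000392), and Ggt-1 fell in males, at log2 -0.48 (adjusted p = 0.000114). Of the oxidases that make reactive oxygen, Duox had log2 -0.69 (adjusted p = 0.000432) in males and log2 -0.39 (adjusted p = 0.00595) in females, a fall in both, and Nox rose in females by log2 1.54 (adjusted p = 1.09e-05).

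Sodh-1 and Sodh-2 oxidize sorbitol to fructose. They are related copies, and 73.9% of the values of Sodh-1 and 100% of those of Sodh-2 were not whole, so their reads may be divided. Among female pools Sodh-1 had 16.7, 21.4, 19.4 and 20.0 CPM at 18 °C, 11.7, 15.3, 12.7 and 7.42 CPM at 24 °C and 169.3, 199, 232 and 122 CPM at 28 °C. The females at 28 °C were 9.33-fold above those at 18 °C (log2 fold change 3.22, SE 0.24, adjusted p = 2.03e-09), the largest change of any member between these temperatures. In males Sodh-1 had 358, 253 and 257 CPM at 28 °C, against 118, 145, 102 and 167 CPM at 18 °C (log2 fold change 1.12, SE 0.24, adjusted p = 0.000681). Sodh-2 gave log2 0.44 (SE 0.10, adjusted p = 0.00139) in females, past the threshold under 16 of the 25 scalings, and log2 0.02 (SE 0.11, adjusted p = 0.888) in males.

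The change between 28 and 18 °C was then compared between the sexes, as the male change minus the female change. It differed in 12 of the 47 members, 3 more positive and 9 more negative in males, where it differed in 20.0% of all features, 6.11% more positive and 13.8% more negative. The division was 6 and 7 with DESeq2 size factors, 6 and 7 with library totals, 10 and 7 with DESeq2, and 14 and 6 without female 28 °C replicate 1. The shares of all features were then 12.6% and 7.99%, 14.0% and 7.34%, 16.2% and 9.39%, and 24.3% and 8.37%, in that order. The median difference over all features was -0.14 with TMM, 0.06 with DESeq2 size factors, 0.08 with library totals, 0.09 with DESeq2 and 0.17 without that library. The largest differences were Sodh-1 at log2 -2.10 (SE 0.33, adjusted p = 9.67e-05), GstD10 at log2 -1.63 (SE 0.30, adjusted p = 0.000365), GstE10 at log2 -1.37 (SE 0.27, adjusted p = 0.000672), GstE3 at log2 -1.28 (SE 0.28, adjusted p = 0.00142) and GstE5 at log2 -1.27 (SE 0.27, adjusted p = 0.00135). These 5 passed under all 25 scalings, and GstE5 was lost without female 18 °C replicate 1 or female 28 °C replicate 4 (log2 -1.43 to -0.94 over all fits that leave out 1 library). GstE11 lay on the other side at log2 1.24 (SE 0.18, adjusted p = 4.70e-05), with a fall in females beside higher male values. GstD9 (log2 1.02) and GstZ1 (log2 0.56) were also more positive in males, and Keap1 (log2 -0.69) more negative, each under all 25 scalings, although Keap1 was lost without female 18 °C replicates 2 or 4 or female 28 °C replicate 4 (log2 -0.70 to -0.38 over all fits that leave out 1 library). Prx2540-2 (log2 -1.06) passed under 18 of them, Trx-2 (log2 -0.45) under 5 and GstE12 (log2 -0.71) under 4. Prx2540-2 was lost without female 18 °C replicates 1, 2 or 4, female 24 °C replicates 1 or 4 or female 28 °C replicate 1 (log2 -1.28 to -0.74 over all fits that leave out 1 library), and Trx-2 without female 18 °C replicates 1, 2 or 4, female 24 °C replicates 1 or 4, female 28 °C replicates 1 or 4 or male 28 °C replicate 1 (log2 -0.56 to -0.14 over all fits that leave out 1 library). Of the tissue markers described further on, 3 of 3 fat body, 2 of 8 midgut and 2 of 5 Malpighian tubule genes had a more negative change in males, and their part in these differences was not tested. For Cat, the difference was log2 -0.32 (SE 0.23, adjusted p = 0.283), and for GstE8 log2 0.53 (SE 0.22, adjusted p = 0.0637).

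**Figure D3:**
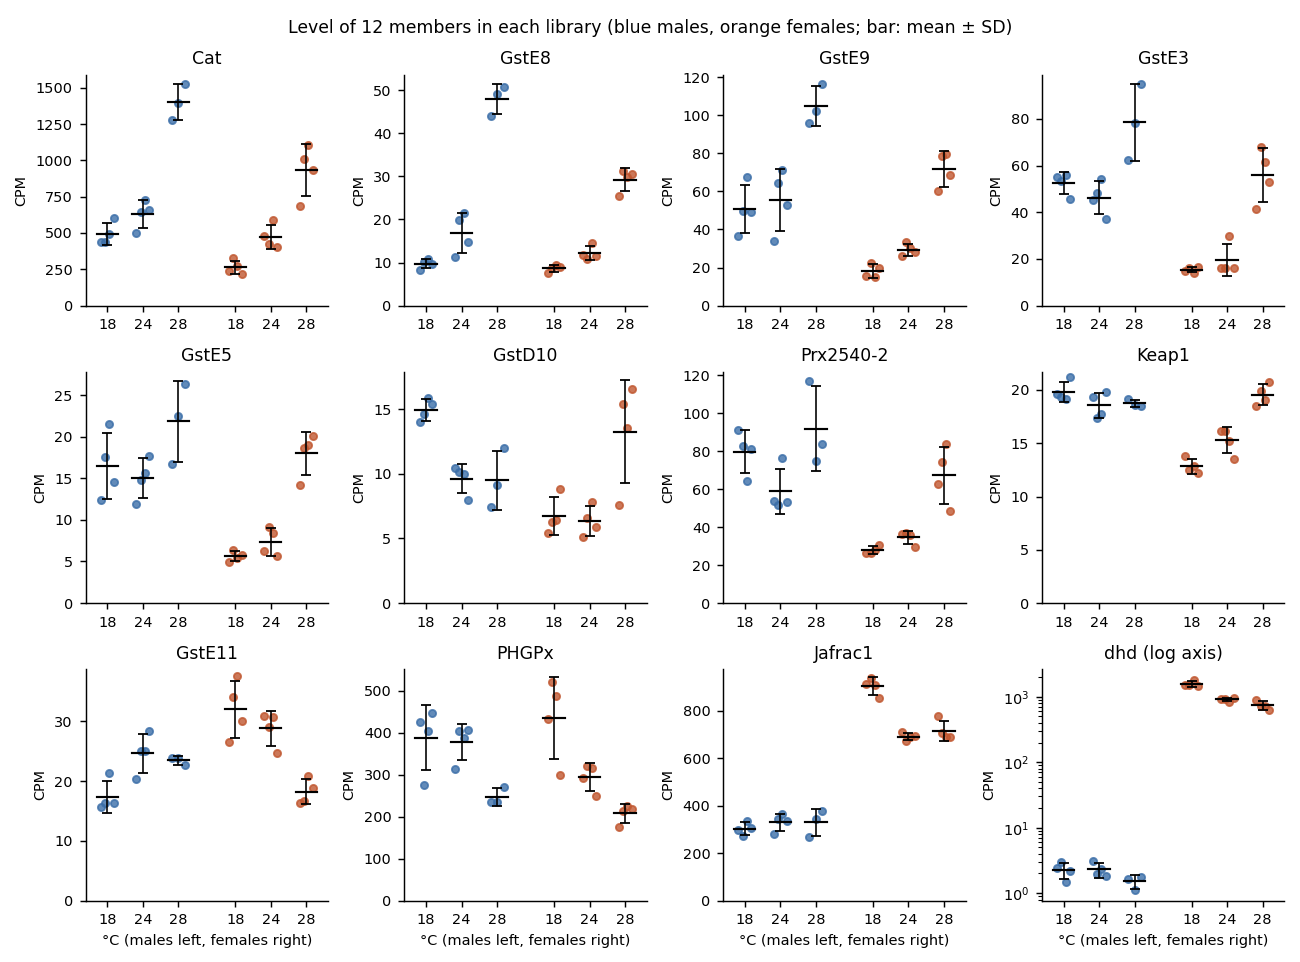
Level in CPM (vertical axes) of 12 members in every library, with males (blue) left of females (orange) and 18, 24 and 28 °C from left to right within each sex; points are libraries and bars the mean ± SD. Cat and GstE8 are highest at 28 °C in both sexes, female levels of GstE3, GstE5, GstD10 and Keap1 at 28 °C reach the male range, and dhd is drawn on a log axis.

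At equal age, 24 against 18 °C, fewer members changed. In females 11 of 47 did, 8 higher and 3 lower, where 24.5% of all features changed, 15.8% higher and 8.7% lower. The libraries did not overlap in 13 members in females, against 42.8% of all features, and in 6 in males, against 16.8%. The division in females was 5 and 8 with DESeq2 size factors, 5 and 4 with library totals and 7 and 10 with DESeq2. The shares of all features were then 12.6% and 15.6%, 14.7% and 9.08%, and 12.7% and 24.8%, in that order. GstE1 had 89.1, 85.8, 128 and 96.0 CPM in females at 24 °C, against 49.4, 49.8, 46.0 and 46.4 CPM at 18 °C (log2 fold change 1.06, SE 0.14, adjusted p = 1.73e-05). The groups did not overlap, and 28 against 24 °C gave -0.01. Cat rose by log2 0.84 (SE 0.16, adjusted p = 0.000461) in females. GstE9 gave log2 0.70 (SE 0.19, adjusted p = 0.00787), past the threshold under 8 of the 25 scalings and lost without female 18 °C replicates 1, 2, 3 or 4, female 24 °C replicates 1, 2, 3 or 4, female 28 °C replicates 1 or 4 or male 18 °C replicate 2 (log2 0.54 to 0.70 over all fits that leave out 1 library). GstO3 had 38.7, 37.9, 58.2 and 37.4 CPM in females at 24 °C, against 22.7, 29.8, 29.7 and 25.9 CPM at 18 °C (log2 fold change 0.67, SE 0.18, adjusted p = 0.00731), past the threshold under 12 of the 25 scalings and lost without female 18 °C replicates 1, 2, 3 or 4, female 24 °C replicates 1, 3 or 4 or female 28 °C replicate 4 (log2 0.49 to 0.73 over all fits that leave out 1 library). For GstO3, replicate 3 at 24 °C was above the other pools. The falls were dhd at log2 -0.78 (SE 0.14, adjusted p = 0.000285), PHGPx at log2 -0.56 (SE 0.15, adjusted p = 0.00708) and Jafrac1 at log2 -0.39 (SE 0.09, adjusted p = 0.00293), with Jafrac1 at 709, 670.3, 689.8 and 694 CPM in females at 24 °C, against 912, 939, 909 and 851 CPM at 18 °C. PHGPx was lost without female 18 °C replicate 3 or female 24 °C replicates 2 or 3 (log2 -0.80 to -0.51 over all fits that leave out 1 library), and Jafrac1 without female 24 °C replicate 2 (log2 -0.51 to -0.37 over all fits that leave out 1 library). Gclc rose by log2 0.40 (SE 0.09, adjusted p = 0.00155), under 16 of the 25 scalings, a call lost without female 18 °C replicates 1, 2 or 4, female 24 °C replicates 1 or 4 or female 28 °C replicate 4 (log2 0.29 to 0.41 over all fits that leave out 1 library). In males 2 of 47 members changed, both higher, where 3.67% of all features did, 1.79% higher and 1.88% lower. They were GstE8 at log2 0.79 (SE 0.15, adjusted p = 0.00318) and GstD3 at log2 0.48 (SE 0.10, adjusted p = 0.006). GstE8 did not overlap between the temperatures, but its call was lost without male 18 °C replicate 1 or male 24 °C replicates 2 or 3 (log2 0.65 to 0.93 over all fits that leave out 1 library).

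More members changed between 28 and 24 °C than between 24 and 18 °C in both sexes. In females 22 members changed between these temperatures, 16 higher and 6 lower at 28 °C, where 27.6% of all features did, 12.1% higher and 15.5% lower. In males 11 changed, 10 higher and 1 lower, where 11.4% did, 3.95% higher and 7.46% lower. The libraries at 28 and 24 °C did not overlap in 23 members in females, against 38.1% of all features, and in 18 in males, against 35.7%. Of the 20 members that rose between 18 and 28 °C in females, 17 had a larger log2 step between 24 and 28 than between 18 and 24 °C, and of the 15 in males 12 did. The same count was not made over all features that rose, so this is not shown to be particular to the members. The steps share the libraries at 24 °C and are unequal in degrees and in age. Among the 47 members that passed the filter, the upper step in females was log2 3.94 for Sodh-1, 1.58 for GstE7 and 1.52 for GstE3, the highest of them, and in males it was log2 1.51 for GstE8 and 1.15 for Cat. Among the 8 below the filter, fitted without it, GstD8 had a larger upper step than any of these but Sodh-1, at log2 2.28 in males and 2.92 in females, and GstD7 had log2 2.43 in females. GstD9 in females rose at 24 against 18 °C and fell at 28 against 24 °C (the rise under 23 of the 25 scalings), with 43.7, 53.9, 36.5 and 33.9 CPM at 18 °C, 61.7, 75.04, 74.9 and 45.7 CPM at 24 °C and 24.4, 32.0, 38.6 and 33.3 CPM at 28 °C. In a model linear in temperature, 24 members passed in females (18 with a positive slope, 6 negative), where 29.8% of all features did, 19% positive and 10.7% negative. The division in females was 15 and 10 with DESeq2 size factors, 16 and 10 with library totals, 15 and 12 with DESeq2, and 16 and 13 without female 28 °C replicate 1, and negative slopes were then the more frequent over all features (15.2% positive and 27.8% negative with DESeq2, 15.1% and 33.8% without that library). In males 10 passed (9 and 1), where 18.8% did, 6.9% positive and 11.9% negative. The interaction of temperature with sex passed in 6 (1 and 5), where 13.1% did, 4.18% positive and 8.89% negative. Its main direction turned with the processing, since the division was 3 and 3 with DESeq2 size factors, 4 and 3 with library totals, 9 and 3 with DESeq2, 8 and 5 with Poisson on rounded CPM, and 10 and 3 without female 28 °C replicate 1. Over all features it was then 12.7% positive and 6.83% negative with DESeq2, and 20.3% and 6.14% without that library.

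**Figure D4:**
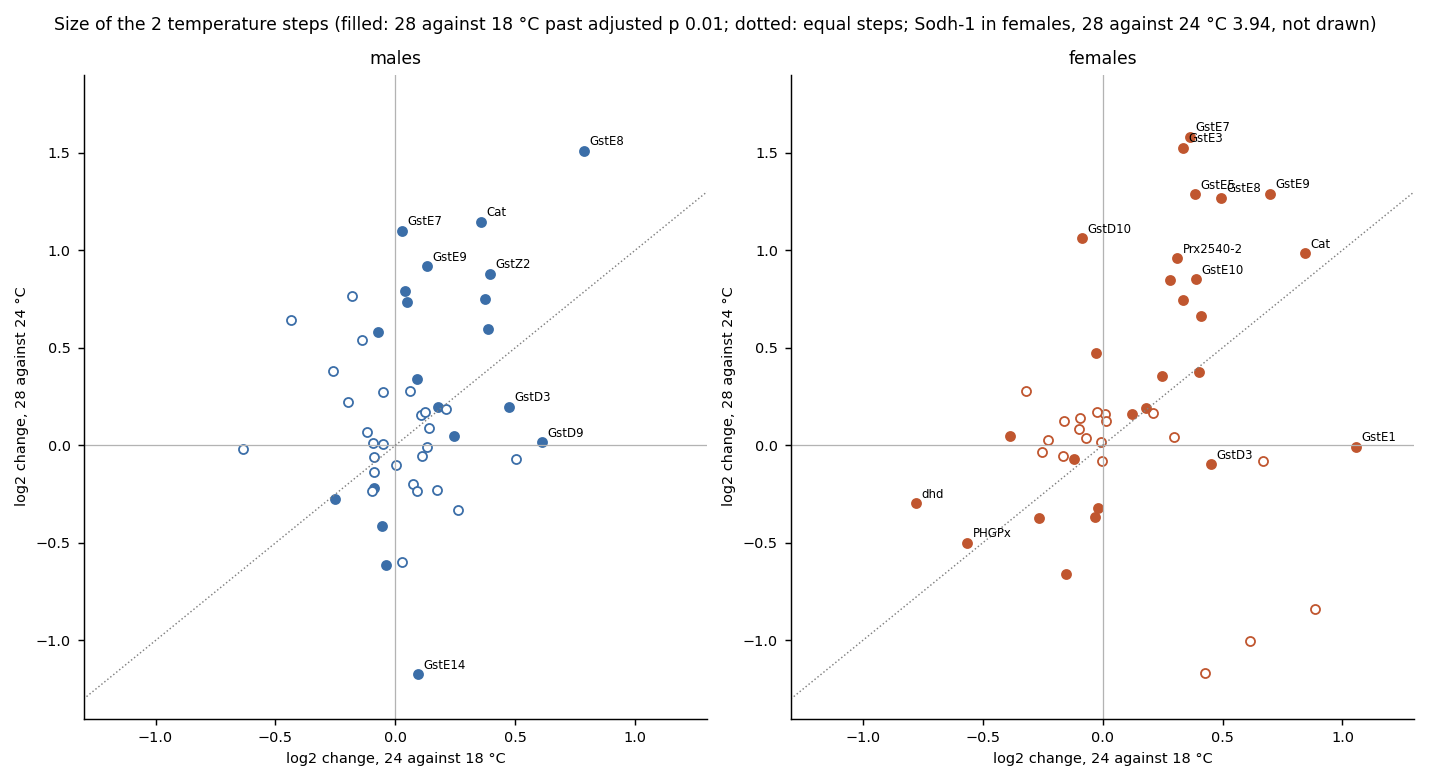
Log2 change at 24 against 18 °C (horizontal axis) and at 28 against 24 °C (vertical axis) for each of the 47 members in males (left) and females (right), with filled points for members past the threshold between 28 and 18 °C. Above the dotted line the upper step is more positive than the lower, so a member that fell may lie there with the smaller upper step. GstE1 and GstD3 in females lie below it, and Sodh-1 in females, at 3.94, is outside the panel.

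Males and females differed in most members, as they did in most of all features. Averaged over the temperatures, 42 of 47 members differed, 27 higher and 15 lower in males, where 86.7% of all features differed, 47.2% higher and 39.5% lower in males. With DESeq2 the division was 23 higher and 17 lower in males, and over all features 40.7% and 45.8%, and over the 23 TMM references 21 to 27 members were higher in males. No male library overlapped a female one in 11 members, against 50.2% of all features. GstS1 had a lowest, median and highest level of 344, 472 and 655 CPM over the 11 male libraries, against 127, 157 and 171 CPM over the 12 female libraries (log2 fold change 1.71, SE 0.06, adjusted p = 4.32e-17). Jafrac2 had 68.5, 92.8 and 129 CPM in males, against 27.4, 29.8 and 35.6 CPM in females (log2 fold change 1.61, SE 0.08, adjusted p = 1.90e-14). GstE2 had 4.52, 5.46 and 8.82 CPM in males, against 1.09, 1.95 and 2.91 CPM in females (log2 fold change 1.60, SE 0.14, adjusted p = 5.10e-10). No male library overlapped a female one in these 3 genes. Sodh-1 gave a larger mean difference (log2 2.44) but overlapped, since females at 28 °C reached the male range. TrxT, which was under the filter in females, had 179.7, 285 and 501 CPM in males, against 0.0811, 0.370 and 0.974 CPM in females (log2 fold change 9.48, SE 0.21, adjusted p = 1.32e-20, without the filter).

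Among members lower in males, dhd was at 1.12, 1.97 and 3.15 CPM in males, against 627, 934 and 1804 CPM in females (log2 fold change -8.99, SE 0.13, adjusted p = 6.62e-23). TrxT and dhd lie next to each other on the X chromosome, from 5310581 to 5311888 and from 5312171 to 5313125 of Release 6, and TrxT was the higher in males and dhd in females. Sod3 had 29.9, 37.1 and 37.8 CPM in males, against 124, 136 and 166 CPM in females (log2 fold change -1.95, SE 0.05, adjusted p = 9.52e-20). Jafrac1 had 267, 333 and 375 CPM in males, against 670.3, 708 and 939 CPM in females (log2 fold change -1.25, SE 0.06, adjusted p = 3.18e-15). GstE13 (log2 -1.17), GstZ1 (log2 -0.65) and GstT1 (log2 -0.36) were also lower in males with no overlap between the sexes. GstD1 and Gclc did not pass, at log2 0.10 (SE 0.05, adjusted p = 0.0869) and log2 -0.00 (SE 0.05, adjusted p = 0.95). Cat was higher in males by log2 0.64 (SE 0.09, adjusted p = 1.35e-06) and Sod1 by log2 0.34 (SE 0.06, adjusted p = 2.47e-05), Sod1 passing under 23 of the 25 scalings. Ovary and testis are present in one sex only, and over the temperatures the 10 ovary germline markers summed to 383 to 724 CPM in males and 3689.7 to 5712 CPM in females. The part of these organs in the differences was not tested.

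**Figure D5:**
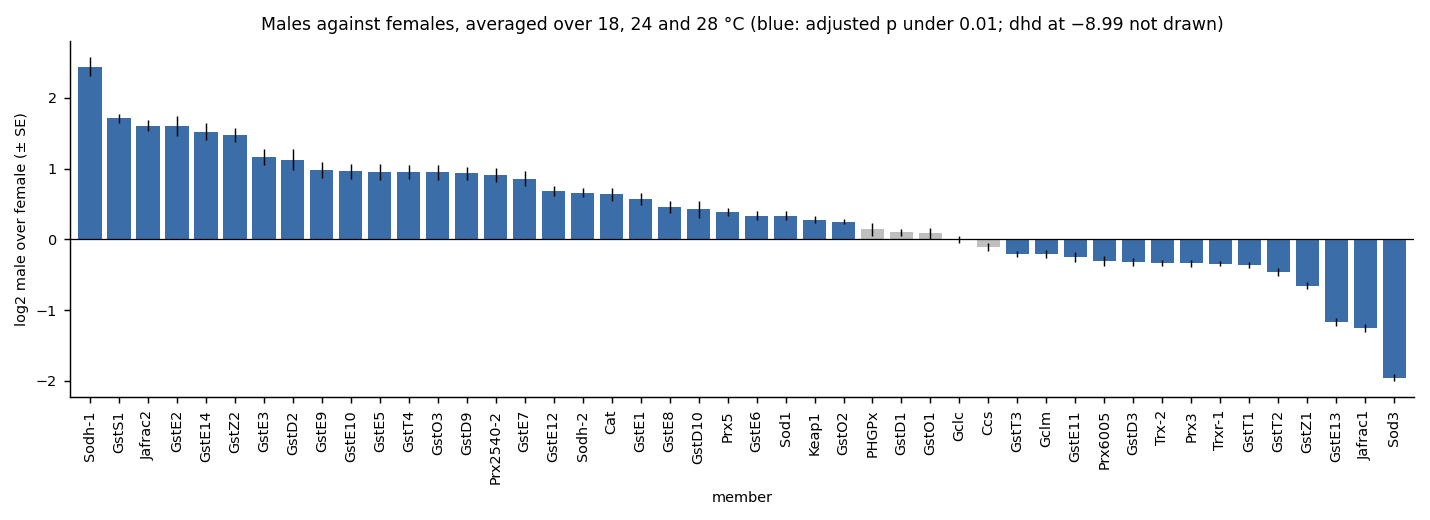
Log2 ratio of males over females (vertical axis, bars ± SE), averaged over the temperatures, for 46 of the 47 members in order of size. Blue bars passed an adjusted p of 0.01; Sodh-1 at 2.44 and GstS1 at 1.71 are at the left end, Sod3 at -1.95 at the right, and dhd at -8.99 is not drawn.

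Summed over genes, the 35 GSTs held 2636 ± 73.0 CPM at 18 °C, 2779 ± 250.0 CPM at 24 °C and 3359 ± 153 CPM at 28 °C in males (SD, n = 4, 4 and 3). In females they held 1881 ± 70.6 CPM, 2010.1 ± 136 CPM and 2255 ± 171 CPM at the same temperatures (SD, n = 4 each). Class E alone gave 941 ± 108 CPM in males at 28 °C, against 745 ± 73.4 CPM at 18 °C, and 707 ± 86.5 CPM in females at 28 °C, against 421 ± 29.002 CPM at 18 °C. Class D, most of it GstD1, gave 1173 ± 44.2 CPM in males at 28 °C, against 957 ± 44.3 CPM at 18 °C, and 939 ± 62.4 CPM in females at 28 °C, against 924 ± 41.9 CPM at 18 °C. With library totals class D in females was instead lower at 28 °C, at 913 ± 53.7 CPM, against 978 ± 37.9 CPM at 18 °C. The superoxide dismutases, Ccs and catalase together held 1867 ± 197 CPM in males at 28 °C, against 867 ± 84.8 CPM at 18 °C, and 1425 ± 186 CPM in females at 28 °C, against 672 ± 58.4 CPM at 18 °C. The peroxiredoxins with PHGPx held 1222 ± 27.3 CPM in females at 28 °C, against 1602 ± 142 CPM at 18 °C, and the thioredoxins with Trxr-1 gave 1360.0 ± 125 CPM in females at 28 °C, against 2214 ± 193 CPM at 18 °C, mostly from dhd. These sums are descriptions and were not tested.

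Tissue markers also moved with temperature. The 8 of 9 midgut markers in the table summed to 8143 to 10050.4 CPM in males at 28 °C, against 2481 to 5549.8 CPM at 18 °C, and to 4433 to 7983 CPM in females at 28 °C, against 1599 to 2008 CPM at 18 °C. Of these 8, 7 rose in females and 3 in males. The 4 of 6 fat body markers in the table summed to 3038 to 4970.0 CPM in females at 28 °C, against 632 to 1097 CPM at 18 °C, while the male groups overlapped. Of the 3 that passed the filter, 2 rose in females and 1 fell in males. The 5 Malpighian tubule markers, which include Cyp6a2, summed to 507 to 721 CPM in females at 28 °C, against 171 to 261 CPM at 18 °C. In males they summed to 551 to 676 CPM at 28 °C, against 380 to 561 CPM at 18 °C, with overlap. Of these 5, 4 rose in females, and 1 rose and 1 fell in males. Midgut, fat body and tubule are known as main sites of GSTs and catalase, and the part of these markers in the rises of Cat and class E was not tested. In females the 3 yolk genes summed to 44096 to 51633 CPM at 28 °C, against 4348 to 10103.5 CPM at 18 °C. All 3 rose in females, where 21.8% of all features did, and 1 rose in males, where 10.5% did. The part of the yolk genes in the changes of the members was not tested. Markers also moved at equal age. Between 24 and 18 °C in females, 4 of 8 midgut, 2 of 3 fat body, 2 of 5 tubule and 5 of 7 muscle markers rose. Of all features 15.8% did. In males 2 of 8 midgut, 1 of 7 muscle and 1 of 3 yolk genes rose, where 1.79% of all features did, and 1 of 5 tubule markers fell. The part of these shifts in the changes between 24 and 18 °C was not tested. The yolk genes Yp1, Yp2 and Yp3 and the male RNA roX1 separated the sexes as labelled in every library.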

How the data were processed

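RNA from 23 pools of whole flies was sequenced, and the authors deposited one table of expected counts per gene, which estimate how many reads came from each gene and need not be whole (23.2% of values were not). The submitters' processing notes name HISAT, StringTie, Cufflinks, Bowtie2, RSEM and DESeq2 and the build dm6, and their versions were not used here. Reads from overlapping genes or close copies are divided by estimation, and a gene without counts in one sex may be missing, since the table holds no value of 0. Besides the members named above for this, 100% of the values of GstO3, GstT2, Gclc and Trxr-1 were not whole. For Prx5 it was 95.7%. The expected counts were rounded. A feature was kept if it reached 0.5 CPM in each library (9698 of 11152, and 74 of the 11152 had no symbol). Counts were scaled with TMM and fitted over all 23 libraries with group means and, separately, a line in temperature for each sex (edgeR 4.0.16 quasi-likelihood test, limma 3.58.1, R 4.3.3). P-values were adjusted with Benjamini-Hochberg over all features kept, with a threshold of 0.01. CPM is the expected count over the scaled library size. The 8 members under the filter were tested in a fit without it. Totals of 17727137 to 23194619 and a common biological coefficient of variation of 0.141 set the precision, and these values cover the spread between pools only.

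Members and lists were chosen with earlier results of these data known. Values and full statistics were given by rule for up to 8 largest rises and falls between 28 and 18 °C in each sex without overlap, up to 5 largest differences between the sexes in that change, up to 6 members in each direction between the sexes, up to 4 in each direction between 24 and 18 °C, and a fixed set (Cat, Sod1, Sod3, GstD1, GstS1, Gclc, Gclm, Keap1, Trxr-1, dhd and TrxT). Other members named with a test, such as GstD3, GstD7, GstD8, GstD9, GstE4, GstE6, GstE12, Ccs and Prx3, were chosen after their values were seen. Alternatives were other scalings, filters, thresholds and tests (DESeq2 1.42.0, Poisson on rounded CPM), fits on fewer groups and leaving out each library. Leaving out features that have no symbol was chosen after seeing the data. Tables and figures were made with Python 3.11.15, numpy 2.4.6, pandas 2.3.3 and matplotlib 3.10.9. Gene positions and current symbols were matched by gene ID to RefSeq, Release 6, for all 55 members.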

Additional observations from a re-analysis of the deposited data

Results flagged for a closer look

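In 18 of 180 groups of 4 libraries tested over the 36 members described in full, 1 library lay far from the other 3 of its group. Chance gives about 1 in 20 such groups. Female 28 °C replicate 1 was low in GstZ2 (21.7 CPM), GstE1 (77.5 CPM), GstE10 (13.6 CPM) and Sod1 (296 CPM). Female 24 °C replicate 3 was high in GstE3 (29.9 CPM), GstO3 (58.2 CPM) and Trx-2 (209.7 CPM) and low in GstT2 (20.4 CPM). Female 18 °C replicate 3 was high in dhd (1804 CPM), Trx-2 (237 CPM) and Gclm (168.4 CPM), and female 18 °C replicate 4 was high in Sod3 (146 CPM). Female 28 °C replicate 4 was low in Trx-2 (219 CPM). Among males, 24 °C replicate 3 was high in Prx2540-2 (76.4 CPM) and GstE2 (7.08 CPM), 24 °C replicate 1 was low in Trxr-1 (313 CPM) and GstO3 (49.8 CPM), and 18 °C replicate 3 was high in GstE11 (21.4 CPM).

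By the test of the difference itself (edgeR, adjusted p below 0.01), the change between 28 and 18 °C differed between males and females in 12 members. These were 12 of 47, where 20.0% of all features differed. The division was 3 more positive and 9 more negative in males, but 14 and 6 without female 28 °C replicate 1. The calls of Prx2540-2, Trx-2 and GstE12 depended on the scaling, as given above. The male change minus the female change was -2.10 for Sodh-1, -1.63 for GstD10, -1.37 for GstE10, -1.28 for GstE3, -1.27 for GstE5, -1.06 for Prx2540-2, -0.71 for GstE12, -0.69 for Keap1 and -0.45 for Trx-2 on the log2 scale. It was 0.56 for GstZ1, 1.02 for GstD9 and 1.24 for GstE11.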

How the results depend on the processing

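Over 56 alternative settings, no member described in full changed sign where its change had passed the threshold. Of 288 member and comparison pairs 121 had passed, and 84 of these passed under every alternative while 37 lost the call under at least 1. Sod3 in females between 28 and 18 °C, 0.05 and short of the threshold, lay between -0.25 and 0.0868 on leaving out 1 library, negative without female 28 °C replicate 1. The causes were not tested. Between 24 and 18 °C in females, 11 members became 17 with DESeq2, 18 at a threshold of 0.05, and 6 to 16 on leaving out 1 library. The share of all features went from 24.5% to 37.4% with DESeq2 and 43.7% at 0.05. In males, 2 became 4 with library totals, 4 with DESeq2 and 4 with the TMM reference that gave most calls. They became 6 at 0.05, 0 when only those groups were fitted (fewer libraries), and 0 to 4 on leaving out 1. Of all features 3.67% passed, 4.15% with library totals, 7.75% with DESeq2, 12.2% at 0.05 and 0.371% with only those groups. Between 28 and 24 °C in males, 11 became 20 at 0.05 and 3 with only those groups, where 11.4%, 25.5% and 2.25% of all features passed. The 12 differences between the sexes became 11 to 20 on leaving out 1 library, the highest without female 28 °C replicate 1. Of all features 20.0% differed in the main fit and 32.6% without that library. For slopes in males, 10 became 16 with library totals, 18 with another TMM reference, 21 at 0.05 and 6 to 16 on leaving out 1. Of all features 18.8% passed in the main fit, 17.3% with library totals and 33.2% at 0.05. For the interaction of temperature and sex, 6 members passed (1 positive, 5 negative). They became 12 with DESeq2 (9 and 3), 12 at 0.05 (3 and 9) and 12 with another TMM reference. With Poisson on rounded CPM they became 13 (8 and 5), and on leaving out 1 library 4 to 13. The division was 10 and 3 without female 28 °C replicate 1, so the prevailing direction turned. Over the TMM references 1 to 10 were positive. Of all features 13.1% passed in the main fit, 19.5% with DESeq2, 25.4% at 0.05, 16.3% with Poisson and 26.4% without that library. With library totals, class D sums were 867 CPM in males at 18 °C, and 913 CPM at 28 °C against 978 CPM at 18 °C in females. Classes O, S, T and Z gave 844 CPM and 896 CPM in males at 18 and 24 °C, and 568 CPM and 542 CPM in females. Peroxiredoxins with PHGPx gave 997 CPM in males at 24 °C, and 1289 CPM and 1188 CPM in females at 24 and 28 °C. Thioredoxins gave 717 CPM in males at 18 °C and 1582 CPM in females at 24 °C, and all GSTs 2387 CPM in males and 1992 CPM in females at 18 °C.

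Whether the replicate numbers pair the samples was not settled. Of 55 same-numbered pairs 26 correlated over 0.1 (median r 0.0915, range -0.446 to 0.652, against a median of -0.0300 for different numbers). The share over 0.1 among pairs of different numbers was not counted. The main fit held no block for the replicate number. With the replicate block, 29 members in females and 20 in males passed between 28 and 18 °C, 13 and 3 between 24 and 18 °C. Of all features 39.6% and 32.3% passed, and 28.6% and 4.45%, in the same order. For the change compared between males and females, 13 members passed, where 21.2% of all features did. The block ended 0 calls of members described in full and added 5.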
